A study of Danio rerio with 2 samples.

Results

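The genes described here encode the machinery that carries a cell through mitosis and separates its chromosomes. The list holds 40 zebrafish symbols, chosen by name, with no measured value in the rule but with earlier results of these data known. Of these, 39 were found among the 27119 gene symbols of the tailbud single-cell count tables. The symbol incenp was not found in the tables and is not analysed here. The symbol ube2c stands for 2 annotated genes whose counts were summed, and 1 of these carried nearly all of them, with 69596 of 69777 UMIs in wild type and 75230 of 75465 in stag2b-/-. The tailbud lies at the tail end of the growing embryo, and its neuromesodermal progenitors (NMPs) give rise to spinal cord and to trunk and tail muscle. Wild-type tailbuds were compared with those of embryos homozygous for NZ207, a germline mutation of stag2b, a gene for a cohesin subunit. There was 1 single-cell RNA-seq library for each genotype, each made from a pool of dissected tailbuds at 16 hpf. The public genotype label gives wild type as AB and names no strain for the stag2b-/- sample, while the methods give wild type as WIK. The version of the kit chemistry differs between labels and methods as well. With 1 library for each genotype, genotype, strain background, pool and library cannot be told apart, so no p-value is given and every interval below is a 95% interval for counting error only.

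Before a cell divides, Cdk1 bound to cyclin A or cyclin B drives it into mitosis, and Cdc25 phosphatases switch Cdk1 on. Condensin, topoisomerase II and Ki-67 shape the chromosomes, which attach to the spindle at their kinetochores. The spindle assembly checkpoint holds back the anaphase-promoting complex until the attachments are made, and the Aurora B kinase and its partners in the chromosomal passenger complex correct wrong ones. Once the complex is active, cohesin is cut, the sister chromatids part, and the central spindle directs cytokinesis. Many of the genes for these proteins are switched on late in the cycle, so that their transcripts mark cells in G2 and mitosis. The tailbud is a tissue of fast growth in which dividing progenitors lie beside cells that leave the cycle as they become muscle fibres or neurons.

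The assay tags each captured transcript with the barcode of its cell and a random tag, the unique molecular identifier (UMI), which lets each molecule count once. Wild type held 303216340 UMIs in 18704 barcodes and stag2b-/- held 393322847 in 26360. After removal of called doublets (4.67% and 10.2% of barcodes) and of barcodes outside the limits on genes and mitochondrial UMIs, 17421 and 23284 were kept, with medians of 15283 and 13244.5 UMIs. Of the barcode sequences, 125 occurred in both libraries, 96 of them among the kept ones. Raw UMIs of marker genes gated 13 exclusive classes, named after the cell type whose markers they carry, and 62.0% and 61.2% of kept barcodes fell into 1 of them. Levels are given as CPM, the counts of a gene for every 1000000 UMIs summed over the cells of a class. They come from 3′ counts without scaling to transcript length, so they serve to compare cells and not genes with each other.

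The 39 genes together held 992954 UMIs in kept wild-type cells, which is 3746 CPM, and 1237955 in stag2b-/-, which is 3972 CPM. Their summed level was highest in NMP-like cells in both libraries, at 5188 CPM in wild type (5146 to 5230, 621 cells) and 5904 CPM in stag2b-/- (5862 to 5947, 761 cells). Posterior presomitic mesoderm (PSM)-like cells came next, at 4875 and 5202 CPM, then neural progenitor-like cells at 4421 and 4342 CPM and somite-like cells at 4188 and 4249 CPM. Along the paraxial mesoderm the level was thus high in the posterior PSM-like and somite-like cells and lower in the anterior PSM-like cells between them, at 3686 and 3796 CPM. These levels pool barcodes of all depths, and the order of NMP-like and posterior PSM-like cells changed with depth. At 20000 to 30000 UMIs posterior PSM-like cells were above, at 7078 against 6011 CPM in wild type and 7282 against 7096 CPM in stag2b-/-. At 5000 to 10000 UMIs they were below, at 3906 against 4901 CPM and 3647 against 4691 CPM. The lowest levels were those of the 2 differentiating classes. Neuron-like cells had 916 CPM in wild type (885 to 947, 217 cells) and 1197 CPM in stag2b-/- (1163 to 1231, 258 cells), and muscle-like cells had 665 CPM (615 to 718, 63 cells) and 928 CPM (892 to 965, 218 cells). Free RNA in the droplets also adds UMIs to cells that do not express a gene, and its part in the levels of these 2 classes was not tested.

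The remaining classes lay in between. Endothelial-like cells had 3096 CPM in wild type against 4196 CPM in stag2b-/-, periderm-like cells 3050 and 3630 CPM, and erythroid-like cells 2842 and 3453 CPM. Intermediate mesoderm-like cells had 2305 and 2765 CPM, basal epidermis-like cells 2171 and 2106 CPM, and notochord-like cells 1911 and 2280 CPM. The wild-type levels of endothelial-like and periderm-like cells had overlapping intervals and cannot be ordered. With all depths pooled, the outer periderm-like layer was thus above the basal skin layer in both libraries. The 2 layers differed in depth, with wild-type medians of 5629 UMIs in periderm-like and 19952 in basal epidermis-like cells. At 20000 to 30000 UMIs in wild type the order was reversed, at 2132 against 2407 CPM. In the other depth bins compared, periderm-like cells were above, for instance 1653 against 770 CPM at 15000 to 20000 UMIs in wild type.

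**Figure D1:**
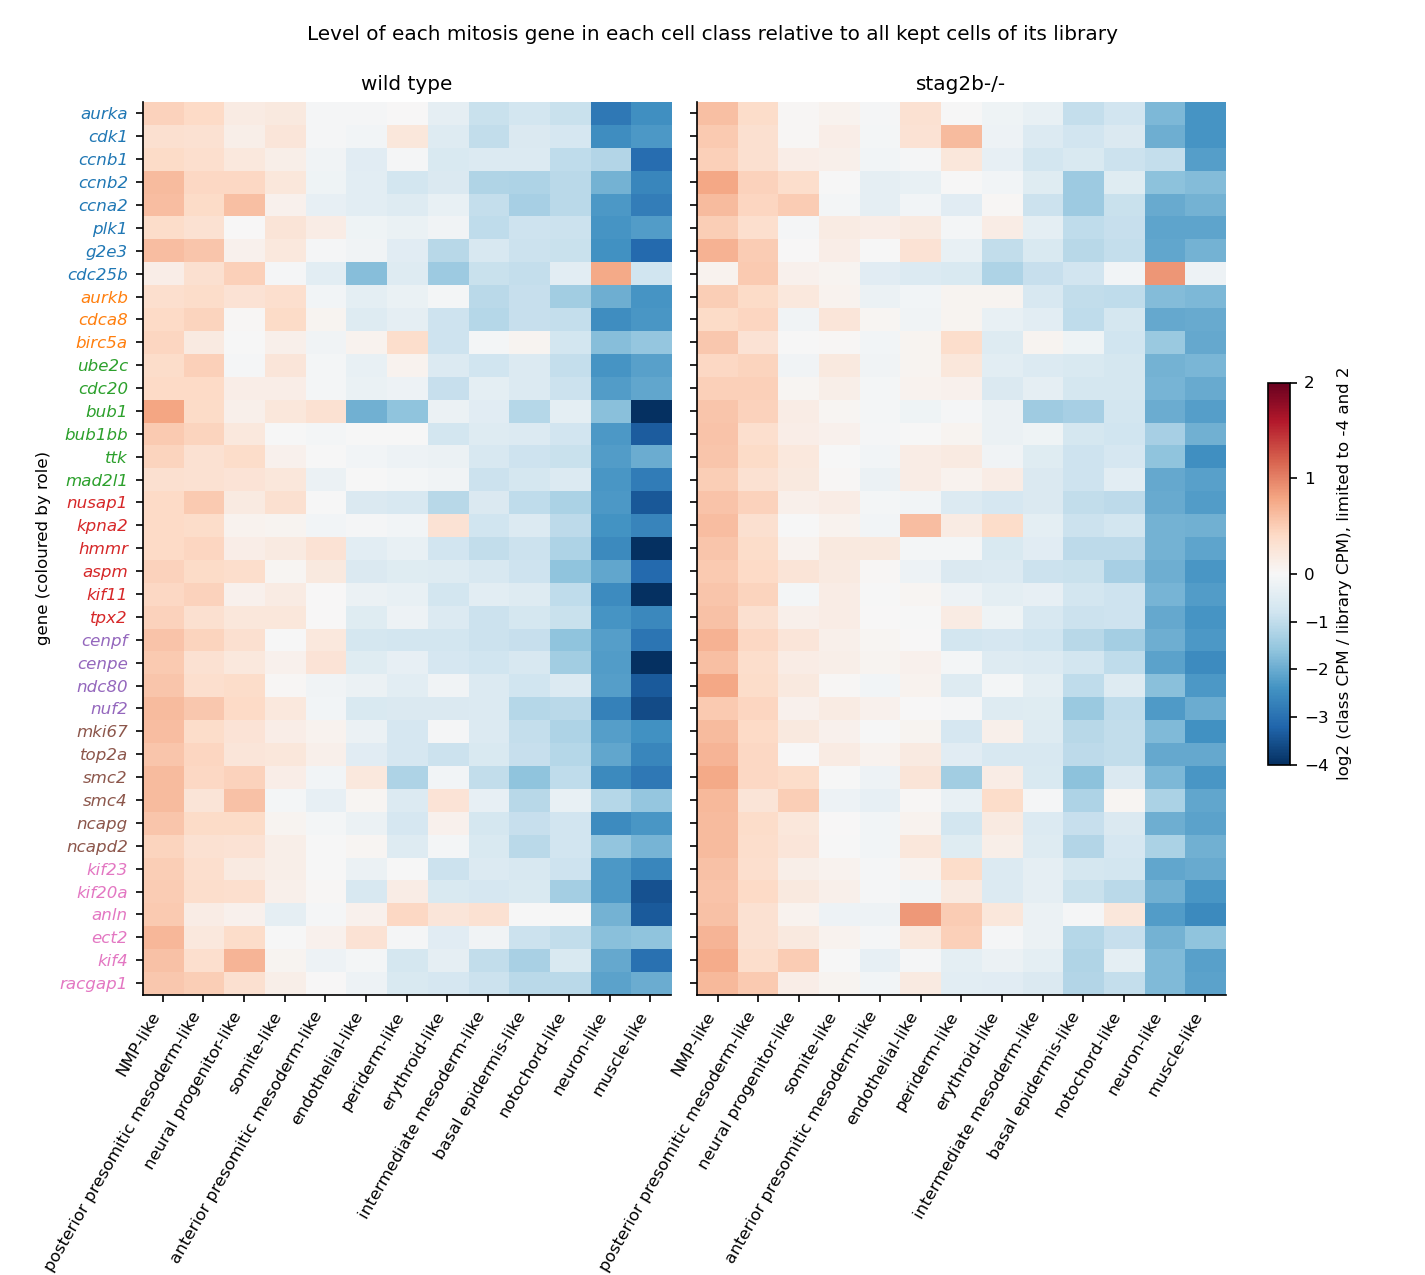
Each cell of the map is the log2 ratio of a gene's CPM in a class (columns, ordered by the summed level in wild type) to its CPM over all kept cells of the same library, with values limited to -4 and 2, and gene names are coloured by role. With all depths pooled, 30 of the 39 genes peaked in NMP-like cells in wild type and 27 were lowest in muscle-like cells, as 6.63% and 29% of all genes were. cdc25b peaked in neuron-like cells.

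Single genes, also pooled over all depths, followed this order closely. In wild type 30 of 39 genes had their highest level in NMP-like cells, as 6.63% of all genes with at least 100 UMIs did, 7 in posterior PSM-like cells, 1 in neural progenitor-like cells (kif4, a chromosome-bound kinesin) and 1 in neuron-like cells (cdc25b). Muscle-like cells were lowest for 27 genes, where 29% of all genes had their lowest level, and neuron-like cells for 11. In stag2b-/- the highest class was NMP-like for 34 genes (6.95% of all genes). The lowest was muscle-like for 31 (22.1% of all genes) and neuron-like for 7. For the other classes named here the share over all genes was not computed, so their counts stand without a reference. The median log2 range between a gene's highest and lowest class was 3.13 in wild type, over the 38 genes with a UMI in every class, and 2.75 in stag2b-/- over 39.

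Muscle-like cells set the widest ranges in wild type, where the class held 63 cells. The kinetochore motor gene cenpe had 90.0 CPM in NMP-like cells and 1.01 CPM, a single UMI, in muscle-like cells (log2 ratio 6.48, 4.0 to 11.79). The spindle motor gene kif11, whose product pushes the spindle poles apart, went from 139 CPM in posterior PSM-like cells to 4.03 CPM in muscle-like cells (log2 5.11, 3.75 to 6.98). hmmr, which encodes a spindle-associated protein, went from 59.1 to 2.02 CPM between the same classes (log2 4.87, 3.02 to 7.92). These ranges rest on 1, 4 and 2 UMIs in muscle-like cells, and their intervals are accordingly wide. nuf2, for an outer kinetochore subunit, went from 55.7 CPM in NMP-like to 3.02 CPM in muscle-like cells (log2 4.2, 2.65 to 6.48). kif20a, for a central spindle kinesin, went from 95.4 to 6.05 CPM between these classes (log2 3.98, 2.85 to 5.43). nusap1, for a protein that bundles spindle microtubules, went from 197 CPM in posterior PSM-like to 13.1 CPM in muscle-like cells (log2 3.91, 3.14 to 4.82). bub1, a checkpoint kinase gene with few counts throughout, had 0 UMIs in wild-type muscle-like cells, which with a floor of 3 counts in that class makes its NMP-like level of 6.10 CPM at least 2.02-fold higher. In stag2b-/-, with 218 muscle-like cells, the ranges of these genes other than bub1 were smaller, for instance a log2 ratio of 3.13 (2.65 to 3.66) for cenpe and 2.80 (2.42 to 3.21) for kif11.

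At the other end, 4 genes had the narrowest ranges in wild type, still of more than 2 on the log2 scale. birc5a, which encodes the Survivin subunit of the passenger complex, ranged from 96.4 CPM in NMP-like to 22.0 CPM in neuron-like cells (log2 2.13, 1.80 to 2.48), and its second highest class was periderm-like at 90.9 CPM. The condensin genes smc4 (114 CPM in NMP-like and 25.2 CPM in muscle-like cells, log2 2.18, 1.62 to 2.82) and ncapd2 (125 and 25.2 CPM, log2 2.31, 1.74 to 2.94) thus had more of their level left in muscle-like cells than the genes above. ect2, for the factor that activates RhoA in cytokinesis, ranged from 43.8 CPM in NMP-like to 8.63 CPM in neuron-like cells (log2 2.34, 1.82 to 2.92). In stag2b-/- these 4 were not the narrowest, with 2.57 for birc5a, 2.73 for smc4, 2.55 for ncapd2 and 2.56 for ect2, and the narrowest ranges were those of cdc25b (2.13), aurkb (2.29) and ube2c (2.34).

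cdc25b was the gene with the most different order of classes. It encodes a phosphatase that activates Cdk1, and in chick and mouse it is also known for its role in neural progenitors on the way to becoming neurons. Its highest class was neuron-like in both libraries, at 85.2 CPM in wild type against 88.9 CPM in stag2b-/-, and its lowest was endothelial-like at 15.6 CPM in wild type and erythroid-like at 20.3 CPM in stag2b-/-. In cells thinned to 5000 UMIs each, 31.2% (24.6 to 38.4) of wild-type neuron-like cells had a cdc25b UMI, against 23.7% (20.4 to 27.3) of NMP-like cells. For plk1, the gene of a mitotic kinase, the same shares were 13.4% (8.89 to 19.2) and 56.5% (52.5 to 60.5). Before thinning, the median depth of these cells was 19444 UMIs in the neuron-like and 18588.5 in the NMP-like class. The intervals of the 2 classes overlapped for cdc25b and were far apart for plk1. anln, which encodes the cytokinetic ring protein anillin, had periderm-like cells as its second class in wild type, at 41.2 CPM against 44.2 CPM in NMP-like cells. In stag2b-/- its highest class was endothelial-like, at 70.5 CPM.

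To ask how many cells of each class were late in the cycle, the UMIs of plk1, aurka (the kinase of the spindle poles), cdc20 (the activator of the anaphase-promoting complex) and ube2c (its ubiquitin-conjugating enzyme) were summed in cells thinned to 5000 UMIs, and a cell with 3 or more was called late-phase. The call is a range on a continuous scale and no cell type: 1786 wild-type and 2311 stag2b-/- cells lay just under the limit, with 2 UMIs, and 1471 and 1730 lay on it, with 3. In wild type 7202 of 16085 thinned cells were late-phase (44.8%, 44.0 to 45.5), and in stag2b-/- 8985 of 21013 (42.8%, 42.1 to 43.4). A further 1336 and 2271 kept cells had fewer than 5000 UMIs and were left out. The call was read against neuron-like cells as background, where 10.2% (6.26 to 15.5) of wild-type and 8.60% (5.26 to 13.1) of stag2b-/- cells passed.

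The share broadly went with the summed level, of which the 4 genes of the call are a part. In wild type it was 58.2% (54.1 to 62.1) in NMP-like, 55.7% (53.6 to 57.8) in posterior PSM-like and 53.2% (50.5 to 55.8) in somite-like cells. Anterior PSM-like cells had 41.1% (39.1 to 43.2), below the classes on either side of them. In muscle-like cells 6 of 56 passed, a share of 10.7% (4.03 to 21.9), with an interval that overlaps that of the neuron-like reference. Of the UMIs of the other 35 genes, which did not enter the call, 74.0% in wild type and 75.8% in stag2b-/- lay in late-phase cells.

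**Figure D2:**
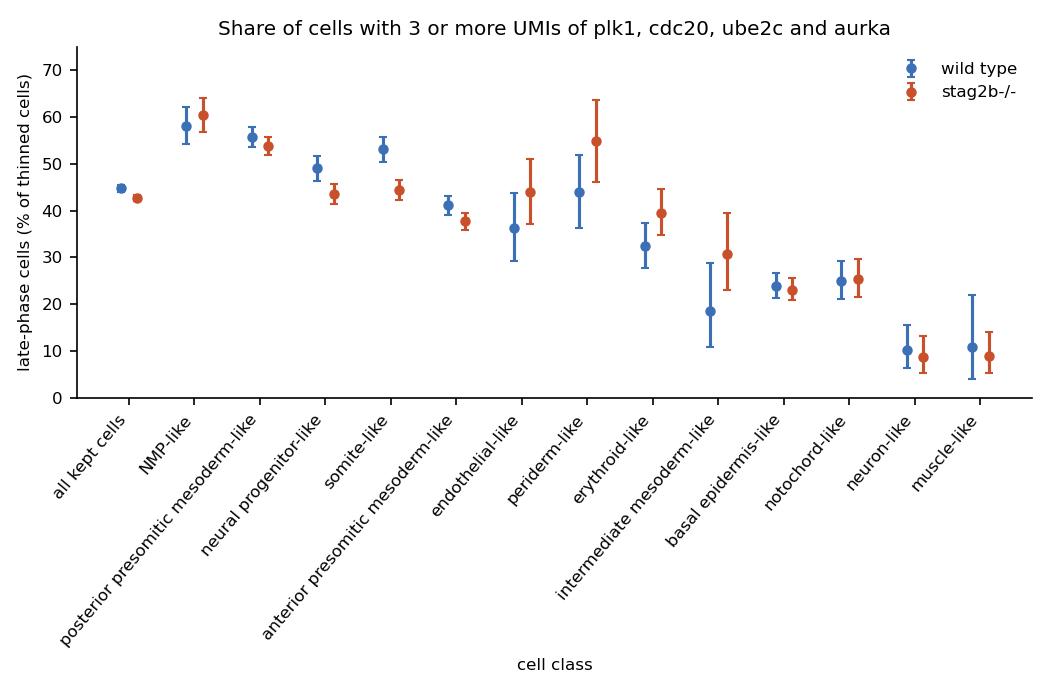
Share of thinned cells with 3 or more UMIs of plk1, cdc20, ube2c and aurka (y axis, percent) in each class (x axis) and genotype, with exact Clopper-Pearson intervals. Somite-like and neural progenitor-like cells are the classes whose intervals do not overlap between genotypes. Shares in neuron-like cells, 10.2% and 8.60%, are the reference.

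Between genotypes, the share was lower in stag2b-/- in somite-like cells (53.2% in wild type and 44.4%, 42.3 to 46.5, in stag2b-/-) and in neural progenitor-like cells (49.0%, 46.3 to 51.7, and 43.6%, 41.4 to 45.8). In the other 11 classes the intervals overlapped. The largest difference within overlapping intervals was in intermediate mesoderm-like cells, with 18.5% (10.8 to 28.7) of 81 cells and 30.8% (23.0 to 39.5) of 130. These intervals hold no spread between embryos or libraries. Among the late-phase cells themselves, the mean count of the 39 genes in a thinned cell, the 4 genes of the call included, was higher in stag2b-/- in 11 of 13 classes, for instance 35.6 against 29.7 UMIs in somite-like cells, and basal epidermis-like and intermediate mesoderm-like cells were the exceptions. In the other cells of the somite-like class it was lower, 6.48 against 8.39 UMIs. The SD over cells was larger in stag2b-/- in 13 of 13 classes, though 13.44 in both libraries after rounding in basal epidermis-like cells. Over all kept cells the median was 13 against 14 UMIs while the 90th percentile was 46 against 40. By class, the median was lower in stag2b-/- only in anterior PSM-like (8 against 11), somite-like (13 against 19) and neural progenitor-like cells (16 against 18). In the others it was equal, as in posterior PSM-like cells (20), or higher, as in NMP-like cells (24 against 22).

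The other 35 genes were then described over bins of the 4 late-phase genes. Their summed level went from 794 CPM in wild-type cells with none of these UMIs to 6856 CPM in cells with 10 or more, and from 759 to 7878 CPM in stag2b-/-. Every one of the 35 was higher in late-phase than in other cells in both libraries, as 38.5% of all genes were in wild type and 37.6% in stag2b-/-. The median log2 ratio was 1.92 for wild type and 2.08 for stag2b-/-, and 33 of 35 had the larger ratio in stag2b-/-, all but bub1 and cdc25b. The share of all genes with the larger ratio there was not computed, so this count has no reference. Genes for S phase behaved differently: a list of 25 peaked in cells with 1 to 2 UMIs, at 4880 CPM in wild type against 3914 CPM in stag2b-/-. It had 2961 and 1965 CPM in cells with 10 or more. In cells with 3 to 5 UMIs, where the late-phase call begins, it had 3976 and 3273 CPM. That was above the 3783 and 2963 CPM of cells with none.

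The steepest gene was kpna2, for an importin that carries spindle assembly factors, with a log2 ratio of 3.16 in wild type (3.06 to 3.26) and 3.43 in stag2b-/- (3.34 to 3.52), with 3.04 to 3.16 and 3.06 to 3.50 for the 4 genes that made the call. It was followed in wild type by hmmr (2.56, 2.42 to 2.70), nusap1 (2.54, 2.47 to 2.61), kif11 (2.49, 2.40 to 2.57) and cenpf (2.45, 2.37 to 2.53), which encodes a large kinetochore protein. These are all genes of the spindle and the kinetochore. The flattest were smc4 (0.48, 0.40 to 0.55), cdc25b (0.57, 0.48 to 0.66), smc2 (0.87, 0.80 to 0.93), ncapd2 (0.90, 0.83 to 0.96) and ncapg (0.98, 0.91 to 1.06). All but cdc25b are subunits of condensin, the complex that compacts chromosomes, and smc2 and smc4 form its core. smc4 was the only one of the 35 whose level did not go up at every step in either library: it reached 91.5 CPM in wild-type cells with 3 to 5 UMIs and was 78.0 CPM in those with 10 or more. Put as shares, which restate these ratios, 53.0% of smc4 UMIs lay in late-phase cells of wild type against 87.9% of kpna2 UMIs.

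**Figure D3:**
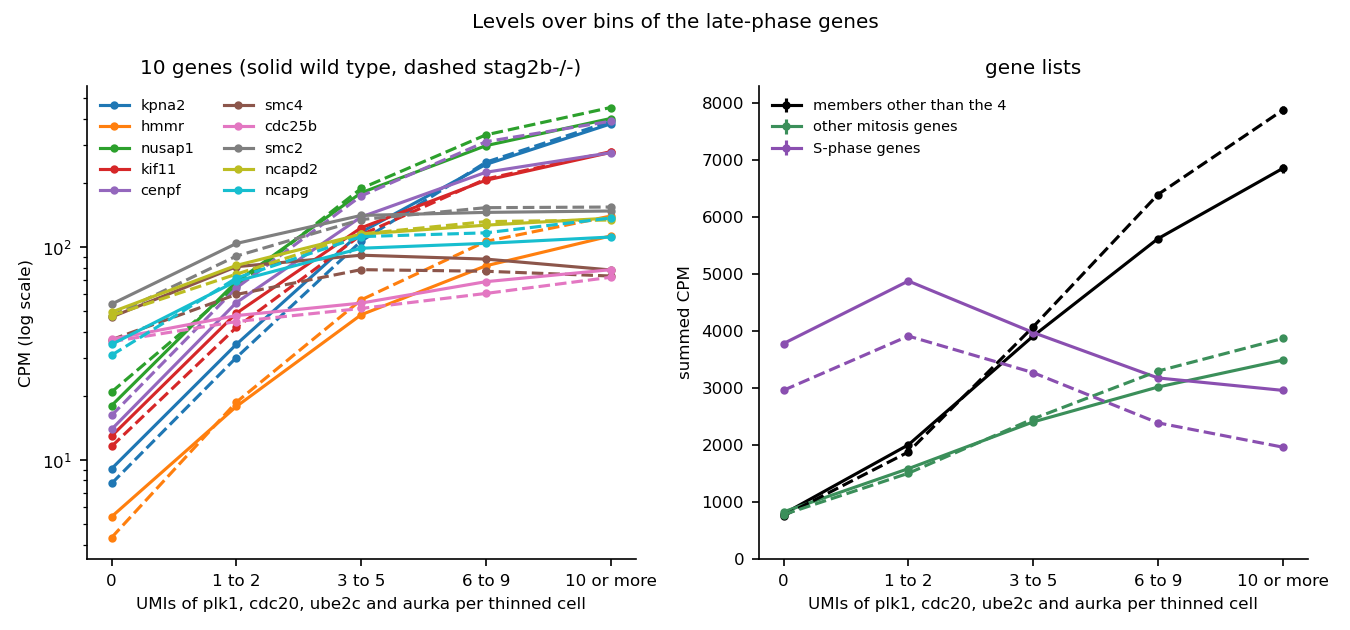
Left, CPM (log axis) of the 5 steepest and 5 flattest genes over bins of the UMIs of plk1, cdc20, ube2c and aurka in thinned cells, solid for wild type and dashed for stag2b-/-; right, summed CPM of the other 35 mitosis genes, of 45 further mitosis genes and of 25 S-phase genes, with Poisson intervals mostly smaller than the points. The mitosis lines climb at each step, from 794 to 6856 CPM in wild type, while the S-phase lines peak at 1 to 2 UMIs.

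The depth of a barcode and its mitosis level were related, and not in a straight line. Over kept barcodes with fewer than 5000, 5000 to 10000, 10000 to 15000, 15000 to 20000, 20000 to 30000 and more UMIs, the summed level in wild type was 3423, 3617, 3033, 2753, 4604 and 4788 CPM. In stag2b-/- it was 3432, 3355, 2802, 4520, 5216 and 4584 CPM. Over all kept cells the jump came at 20000 UMIs in wild type and at 15000 UMIs in stag2b-/-, the library with the lower median depth. These bins pool all classes, and single classes differed. At 20000 UMIs in wild type, anterior PSM-like cells went from 1892 to 4933 CPM, but neuron-like cells from 1783 to 672 CPM. Posterior PSM-like cells rose already at 15000 UMIs, from 3712 to 4474 CPM. Barcodes under 10000 UMIs were also poor in mitochondrial UMIs, with medians of 0.43% to 0.70% against 1.75% to 3.0% in deeper bins, so they were set apart in the next step, a choice made after these values had been seen.

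Among barcodes with at least 1% mitochondrial UMIs, depth was expressed relative to the median of the library, which was 17929.5 UMIs in wild type and 14477 in stag2b-/-. Cells at 0.75 to 1 of the median had the lowest level, 2642 CPM in wild type (2628 to 2656) and 2675 CPM in stag2b-/- (2664 to 2687). The peak lay at 1.5 to 1.75 of the median in wild type, with 5499 CPM (5470 to 5529), and at 1.25 to 1.5 in stag2b-/-, with 5717 CPM (5695 to 5740). Between these bins the libraries were apart, with 3250 CPM (3237 to 3264) and 3901 CPM (3886 to 3915) at 1 to 1.25, and 4841 CPM (4820 to 4863) in wild type at 1.25 to 1.5. Barcodes at 1.25 to 1.75 of the median depth were thus the richest in mitosis transcripts. The S-phase list went the other way, from 4464 CPM at 0.5 to 0.75 of the median to 2815 CPM at 1.75 and above in wild type.

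**Figure D4:**
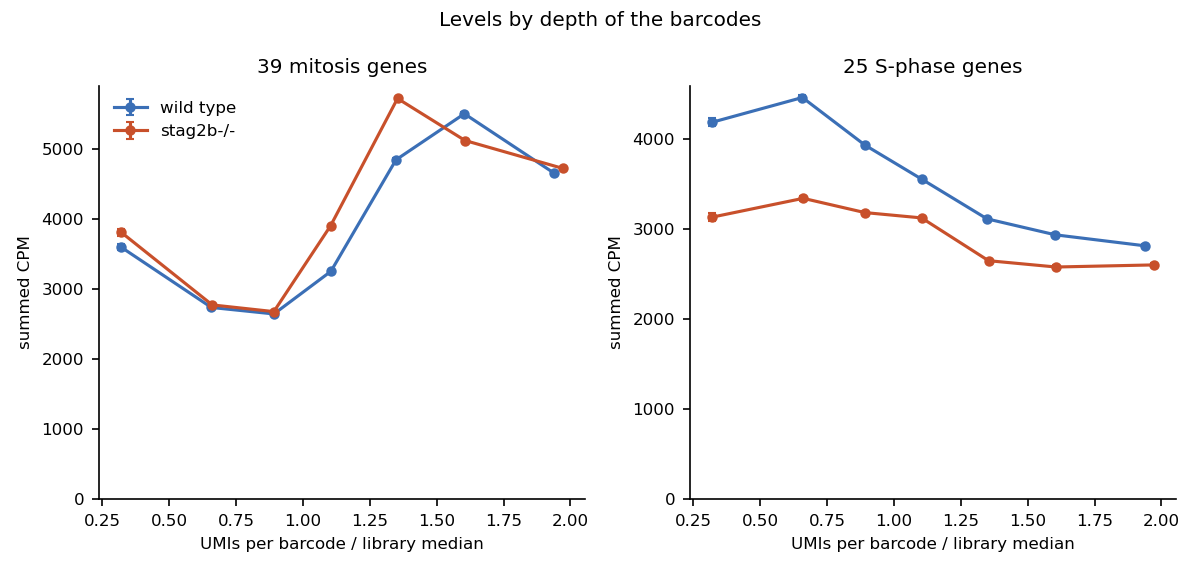
Summed CPM of the 39 mitosis genes (left) and of 25 S-phase genes (right) against UMIs of a barcode divided by the library median, for barcodes with at least 1% mitochondrial UMIs, with Poisson intervals mostly smaller than the points. The mitosis level is lowest at 0.75 to 1 of the median (2642 and 2675 CPM) and peaks above it, at 5499 CPM in wild type against 5717 CPM in stag2b-/-.

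The bins at 0.75 to 1 and at 1.5 to 1.75 were those with the lowest and highest summed level in wild type, so the counts between them restate that choice there and are a description only. Between them 38 of 39 genes in wild type were higher in the deeper bin, where 43.9% of all genes were, and 39 of 39 in stag2b-/-, where 53.3% were. The median log2 ratio of the 39 was 1.07 for wild type and 0.90 for stag2b-/-. kpna2 again changed most (log2 ratio 1.86 in wild type and 1.81 in stag2b-/-), and cdc25b changed least (-0.05 and 0.09), followed by smc4 in wild type (0.12) and bub1 in stag2b-/- (0.17). The median doublet score, which measures likeness to simulated pairs of cells, was also higher in the deeper bin, at 0.041 against 0.029 in wild type and 0.038 against 0.024 in stag2b-/-, and its part in the relation was not tested. Late-phase cells had the higher median depth before thinning in 9 of 13 classes in wild type and 11 of 13 in stag2b-/-, for instance 22677 against 17669.5 UMIs in wild-type anterior PSM-like cells. Notochord-like and periderm-like cells went the other way in both libraries.

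Set between the genotypes, the mitosis genes as a group stayed near the middle of all genes. The summed level was higher in stag2b-/- by a log2 ratio of 0.08 (0.08 to 0.09), but the median of all 19388 genes with at least 100 UMIs stood at 0.16, and relative to it the sum was at -0.07. Changes below are therefore given relative to the median gene of the cells in question. By this measure 17 of 39 genes lay above and 22 below, from -0.66 to 0.42, with a median of -0.03. With a limit of 1.5-fold, 0 of the 39 were higher, where 14.1% of all genes were, and 1 was lower, where 14.2% of all genes were. Among the 5279 genes at 20 CPM or more in wild type, which include 38 of the 39, the shares were 1.69% higher and 7.69% lower and the median was -0.08, against -0.04 for the mitosis genes. Of these 38 genes, 0 were higher and 1 was lower, shares no larger than those of all genes of this abundance in either direction.

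**Figure D5:**
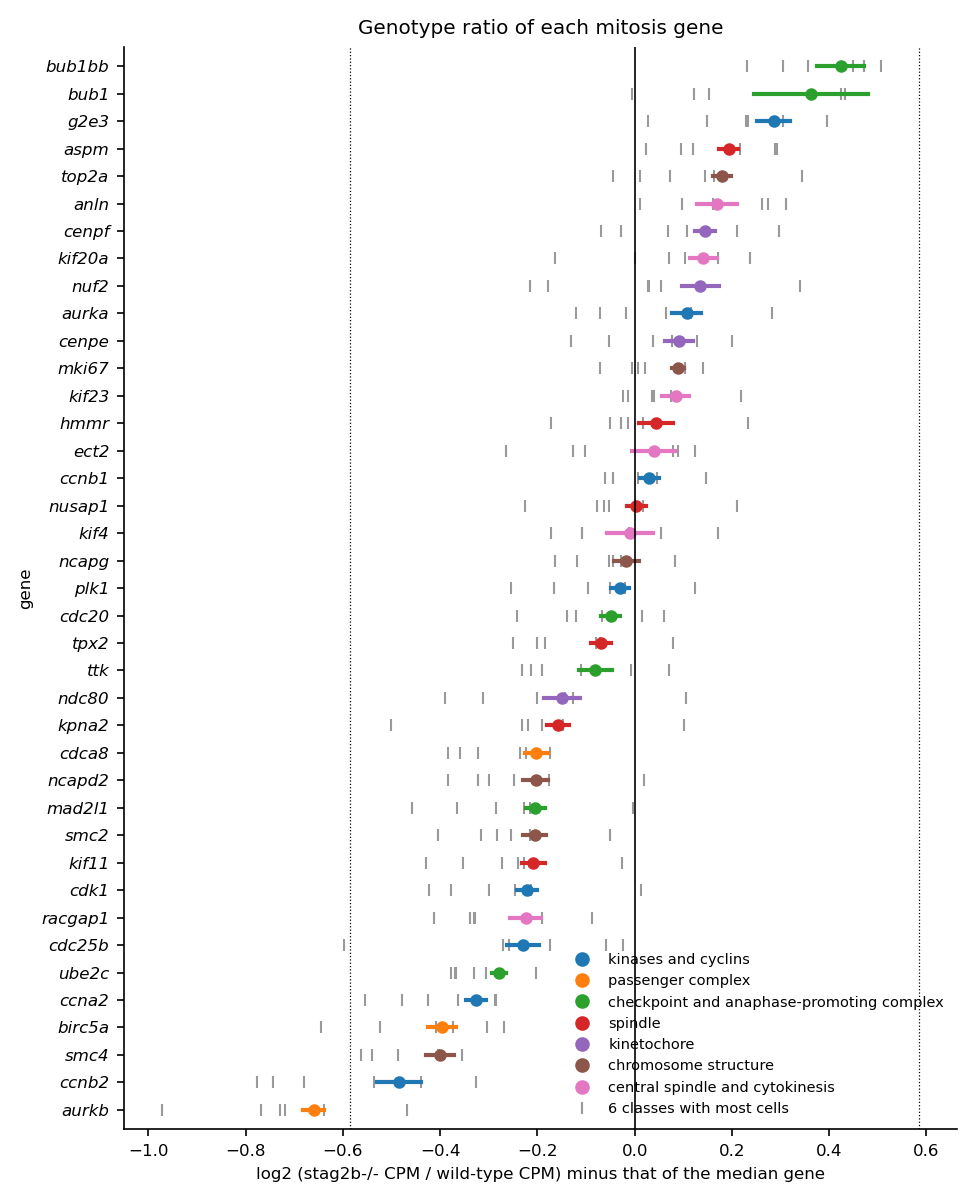
Log2 ratio of CPM in stag2b-/- to wild type over all kept cells minus that of the median gene (x axis) for each of the 39 genes, with exact 95% intervals for counting error and colours for roles; grey ticks are the same ratio in the 6 classes with most cells and dotted lines mark 1.5-fold. aurkb, at -0.66, is the only gene past the dotted line, and the top of the order is bub1bb at 0.42.

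The gene past the limit was aurkb, which encodes the Aurora B kinase. Its level was 141 CPM in wild type against 99.5 CPM in stag2b-/- (log2 -0.50, -0.52 to -0.48), which is -0.66 relative to the median gene. It lay below the median gene in 13 of 13 classes, with values from -0.97 to -0.006. The classes are parts of the same 2 libraries and no repeats. The share of all genes on the same side in every class was not computed, so such counts, here and for genes below, have no reference. Past 1.5-fold it lay in 5 of the 13 classes. In these 5 classes, where 1 gene (posterior PSM-like), 2 genes (somite-like, anterior PSM-like and neural progenitor-like) or 3 genes (basal epidermis-like) were lower, 0 were higher by 1.5-fold, where 10.2% to 13.4% of all genes were (13.4% in somite-like, 12.5% in anterior PSM-like, 11.7% in posterior PSM-like, 11.3% in basal epidermis-like and 10.2% in neural progenitor-like cells). In somite-like cells it went from 178 to 105 CPM (-0.97 relative to the median gene, with 11% of all genes lower by the limit). The values were -0.77 in anterior PSM-like (129 to 84.9 CPM, background 12.1%), -0.73 in basal epidermis-like (74.1 to 50.7 CPM, 10.5%), -0.72 in neural progenitor-like (171 to 116 CPM, 10.9%) and -0.64 in posterior PSM-like cells (181 to 130 CPM, 10.8%). Over the bins of the late-phase genes aurkb is given as CPM, not relative to the median gene. It had 47.2 and 26.6 CPM in thinned cells with none of their UMIs, 115 and 63.0 CPM with 1 to 2 and 200 and 138 CPM with 3 to 5. With 6 to 9 it had 244 and 198 CPM, and with 10 or more 306 and 217 CPM. The stag2b-/- value was thus the lower one in all 5 bins. The bins are not matched between the libraries, since ube2c, which helps define them, was itself lower in stag2b-/- (relative value -0.28). A part of the cell cycle phase in the aurkb difference was not tested. The aurkb value relative to the median gene ran from -0.76 to -0.57 over the alternative settings. It missed the 1.5-fold limit with equal weight for each class (-0.57) and with wild-type weights of relative depth (-0.58). The share of thinned cells with an aurkb UMI was 44.6% in the wild-type library (43.8 to 45.4) and 33.4% in the stag2b-/- library (32.7 to 34.0), against 14.5% and 11.8% in neuron-like cells.

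The measured partners of Aurora B in the chromosomal passenger complex, birc5a and cdca8, were also below the median gene over all kept cells. For cdca8 the value lay within the middle range (quartiles) of all genes, -0.32 to 0.32. birc5a had 71.2 CPM in wild type against 60.4 CPM in stag2b-/- (log2 -0.24, -0.27 to -0.21, relative value -0.40) and lay below the median gene in 12 of 12 classes with enough counts. In basal epidermis-like cells it passed the limit, at 74.1 and 53.8 CPM (-0.64). cdca8, which encodes the subunit borealin, had 101 and 97.6 CPM (relative value -0.20) and lay below in 6 of 12 classes. Summed over the 3 genes the level was 313 CPM in wild type against 258 CPM in stag2b-/-, of which aurkb held 141 and 99.5 CPM. The summed CPM was lower in stag2b-/- in 12 of 13 classes, all but intermediate mesoderm-like cells. Among these 12, the intervals of the libraries overlapped in muscle-like, neuron-like, notochord-like, erythroid-like, endothelial-like and periderm-like cells. With aurkb included, the passenger complex was the group with the lowest summed value relative to the median gene, -0.44. The values of the other 6 groups ran from -0.16 to 0.09.

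Among the cyclins, the genes of the same family had unlike values. ccnb2 had 31.0 CPM in wild type against 24.7 CPM in stag2b-/- (log2 -0.33, -0.37 to -0.28, relative value -0.49). It passed the limit in somite-like (-0.78), basal epidermis-like (-0.74) and anterior PSM-like cells (-0.68). ccnb1, the other cyclin B gene of the list, had 142 and 162 CPM and lay at the median gene, with a relative value of 0.03. ccna2, for cyclin A, had 136 and 121 CPM (log2 -0.17, -0.19 to -0.15, relative value -0.33) and lay below in 10 of 13 classes. Their partner cdk1 had 138 and 132 CPM (relative value -0.22).

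Of the condensin genes, smc4 was the lowest, at 74.0 CPM in wild type against 62.6 CPM in stag2b-/- (log2 -0.24, -0.27 to -0.21, relative value -0.40), and it lay below the median gene in 12 of 12 classes. smc2 and ncapd2 had relative values of -0.21 and -0.20, and ncapg lay at -0.02. top2a, for topoisomerase II, and mki67, for Ki-67, belong to chromosome structure as well and lay above, at 0.18 and 0.09. The group as a whole, at -0.01, thus held members on both sides of the median gene.

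The highest relative values were those of bub1bb and bub1, both genes of the spindle checkpoint. bub1bb, which encodes the checkpoint protein BubR1, had 20.3 CPM in wild type against 30.5 CPM in stag2b-/- (log2 0.58, 0.53 to 0.63, relative value 0.42) and lay above the median gene in 10 of 10 classes with enough counts. bub1 had 3.52 and 5.04 CPM (log2 0.52, 0.40 to 0.64, relative value 0.36), with 932 and 1572 UMIs the fewest counts of the list. It lay above the median gene in 4 of the 5 classes with enough counts. g2e3, for a ubiquitin ligase expressed in G2 and mitosis, had 43.6 and 59.4 CPM (log2 0.44, 0.41 to 0.48, relative value 0.29) and lay above in 11 of 11 classes. The other checkpoint genes did not share this: ttk, for the Mps1 kinase, lay at -0.08 and mad2l1, for Mad2, at -0.20. cdc20 and ube2c lay at -0.05 and -0.28.

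The remaining genes lay between -0.23 and 0.19 over all kept cells. Above the median gene were aspm (0.19, for a spindle pole protein, above in 13 of 13 classes), anln (0.17), cenpf (0.14), kif20a (0.14), nuf2 (0.13), aurka (0.11), cenpe (0.09), kif23 (0.08, for the kinesin of the centralspindlin complex), hmmr (0.04), ect2 (0.04) and nusap1 (0.00). Below it were kif4 (-0.01), plk1 (-0.03), tpx2 (-0.07, for an activator of Aurora A), ndc80 (-0.15, for an outer kinetochore subunit), kpna2 (-0.16), kif11 (-0.21), racgap1 (-0.22, for the other subunit of centralspindlin) and cdc25b (-0.23). The centralspindlin genes kif23 and racgap1 thus fell on opposite sides.

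Within classes, a gene was compared where both libraries together held at least 100 of its UMIs. That was so in 13 classes for 12 genes, in 12 for 17 and in fewer for 10, of which bub1 had the fewest with 5. In NMP-like cells 0 of 39 genes passed 1.5-fold in either direction, where 8.63% of all genes were higher and 9.31% lower, although the summed level was higher there, 5188 CPM in wild type against 5904 CPM in stag2b-/-. In endothelial-like cells (189 wild-type and 217 stag2b-/- ones), 10 of 38 genes were higher, where 7.9% of all genes were, and 0 were lower, where 8.14% were. The largest were anln (32.7 to 70.5 CPM, relative value 1.03), cdc25b (15.6 to 33.2 CPM, 1.01), cenpf (75.7 to 152 CPM, 0.93) and top2a (112 to 219 CPM, 0.89), followed by nuf2, g2e3, kif20a, cenpe, aspm and kpna2. In this class 33 of 38 genes lay above the median gene, and the late-phase share was 36.3% (29.3 to 43.7) and 44.0% (37.2 to 51.0).

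In muscle-like cells 5 of the 13 genes with enough counts were higher (ccna2, ccnb1, top2a, aspm and nusap1), where 11.9% of all genes were, and 0 lower, where 7.02% were. These 5 had 13 to 25 UMIs in the 63 wild-type cells. They reached the minimum of 100 UMIs mainly through the 218 stag2b-/- cells, a filter that favours genes high there. The count is thus a description only. In intermediate mesoderm-like cells 4 of 33 were higher (aurka, cdca8, hmmr and plk1), where 8.43% were, and 0 lower, where 9.69% were. 1 gene each was higher in neuron-like (aurka of 29, background 7.69%), erythroid-like (bub1bb of 38, 10.1%) and periderm-like cells (nuf2 of 38, 14.6%), and 0 were lower there, where 7.05%, 9.2% and 9.21% of all genes were. In neuron-like cells aurka had 30 UMIs in wild type. It could reach the minimum of 100 only with most of its UMIs in stag2b-/-, so that call is a description only as well. The genes lower by the limit were, besides aurkb, ccnb2 and birc5a as given above, cdc25b in neural progenitor-like cells (69.8 to 51.1 CPM, -0.60). In notochord-like cells 0 of 38 passed, where 8.73% of all genes were higher and 8.85% lower. The 18 genes that passed in no class included cdc20, ube2c, cdk1, mki67, kif11, tpx2 and the 4 condensin genes.

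Other mitosis genes from a list of 48, of which 45 were in the tables, gave a like picture, with 0 higher and 2 lower (14.1% and 14.2% of all genes) and a median of -0.06 relative to the median gene. The lower ones were sgo1, for shugoshin, which protects cohesin at centromeres until anaphase (40.3 CPM in wild type against 19.3 CPM in stag2b-/-, relative value -1.22), and pttg1, for securin, which holds back the enzyme that cuts cohesin (49.4 and 34.6 CPM, -0.67). Of the 25 S-phase genes 23 lay below the median gene, as 50% of all genes do, and 4 were lower by the limit, as 14.2% of all genes were. Among genes at 20 CPM or more in wild type the median was -0.08, and 7.69% were lower by the limit. The 4 were mcm7 (112 to 42.1 CPM, -1.57), nasp (159 to 107 CPM, -0.73), fen1 (179 to 125 CPM, -0.67) and rrm2 (660 to 482 CPM, -0.61). These encode a replicative helicase subunit, a histone chaperone, a nuclease that trims Okazaki fragments and a subunit of ribonucleotide reductase. The symbol rrm2 stands for 2 annotated genes that went in opposite directions, from 656 to 407 CPM and from 3.99 to 74.2 CPM. The ratio of the 39 mitosis genes to the S-phase list, summed CPM over summed CPM, was higher in stag2b-/- in 13 of 13 classes, for instance 0.89 and 1.21 in NMP-like cells. Both parts of the ratio moved. The S-phase sum was higher in stag2b-/- in only 2 of 13 classes. The mitosis sum was higher in 11 of 13, all but neural progenitor-like and basal epidermis-like cells. In somite-like cells the mitosis sum went from 4188 to 4249 CPM and the S-phase sum from 3158 to 2569 CPM. A list of 9 genes of cell cycle exit and cyclin D had 0 of 9 past the limit, with 8 below the median gene.

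A list of 9 immediate early and heat shock genes, which respond to handling of cells, also differed between the libraries, with 8 of 9 lower by the limit in stag2b-/- (14.2% of all genes) and summed levels of 3069 CPM in wild type against 2065 CPM in stag2b-/-. The 8 were fosab, fosb, jun, junba, egr1, atf3, ier2b and hsp70.2. Their part and that of the S-phase genes in the differences of the mitosis genes was not tested.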

How the data were processed

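Single-cell libraries of 1 wild-type and 1 stag2b-/- tailbud pool were analysed. Per the methods, the authors mapped 3′ reads to GRCz11 with a curated transcriptome, intronic reads included, using Cell Ranger 7.1.0, and deposited raw UMI counts for the barcodes called as cells. No normalization or doublet removal had been applied to the deposited counts.

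Barcodes were kept with at least 200 genes, at most the 98th percentile of genes, and at most 15% mitochondrial UMIs (13 genes). The percentile is a reading of the methods, whose wording of this limit refers to a median. Scrublet, as run in Scanpy 1.11.5, replaced Solo for calling doublets, which were removed. Classes were gated by raw marker UMIs, a barcode passing several gates was left ungated, and the thresholds were set after marker levels had been seen. Each class had from 1 to 6 of its own markers among its top 10 genes by fold, and no other class had more of its markers there. Intermediate mesoderm-like and notochord-like cells had 1, and so had somite-like cells of stag2b-/-. The marker lists include genes of the gates, so these counts are partly fixed by the gating and are no separate check of the class names. In intermediate mesoderm-like and notochord-like cells the marker found, pax2a and loxl5b, was itself a gate gene.

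UMIs were summed over cells of a class and scaled to CPM, with Poisson intervals computed exactly. Ratios have exact conditional binomial intervals and shares exact Clopper-Pearson intervals, at 95%. A gene was called at 1.5-fold from the median gene, with at least 100 UMIs over both libraries. For late-phase calls each cell was thinned to 5000 UMIs. The ratio step was tested on simulated counts. The members, lists and steps were chosen with earlier results of these data known. Full values are given for the 8 genes farthest from the median gene, the 6 widest and 4 narrowest over classes, and the 5 that changed most and least over the late-phase bins. Genes of other lists are named past 1.5-fold. The centralspindlin pair, ccnb1 and other genes outside this rule were named after their values were seen. Alternatives covered doublets, filters, gates, thinning, weights and library sizes by TMM (edgeR 4.0.16). A planned search of promoters for cell cycle motifs was not run.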

Additional observations from a re-analysis of the deposited data

Results flagged for a closer look

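cdc25b differed in direction between classes. Relative to the median gene it was higher in stag2b-/- in endothelial-like cells, by 1.01 on the log2 scale, from 50 UMIs in wild type and 110 in stag2b-/-. In neural progenitor-like cells it was lower, at -0.60, from 1413 and 1437 UMIs. It was the only one of the 39 genes past 1.5-fold in opposite directions in 2 classes. With 1 library for each genotype the difference between the classes was not tested.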

How the results depend on the processing

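The summed log2 ratio of stag2b-/- to wild type, 0.08, stayed positive with doublets kept (0.0893), at most 5% mitochondrial UMIs (0.0891), no upper limit on genes (0.0709), at least 10000 UMIs (0.11), thinned counts (0.0599), the mean over cells (0.0512), equal weight for each class (0.16) and wild-type weights of depth (0.22). With TMM library sizes it was negative, -0.0675, as these shift all genes alike. Measures chosen after seeing the data gave 0.10 in barcodes with at least 1% mitochondrial UMIs and 0.12 with wild-type weights of relative depth as well. The count of genes higher by 1.5-fold was 0 under every one of these settings. The count lower was 1 (aurkb), and it was 0 with equal weight for each class and with weights of relative depth. The other 7 genes given with full values in the comparison of genotypes kept their direction under all these settings. The median of the 39 genes relative to the median gene ranged from -0.10 (thinned) to 0.04 (equal weight for each class).

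The log2 ratio of NMP-like over neuron-like cells, 2.50 in wild type and 2.30 in stag2b-/-, became 2.60 and 2.43 with 1 more UMI asked of each gating marker, 2.31 and 2.25 with thinned counts, and 2.42 and 2.39 as a mean over cells, and 2.24 in stag2b-/- with doublets kept. The late-phase share, 44.8% and 42.8%, depended on its limit: 55.9% and 53.8% at 2 UMIs, 35.6% and 34.5% at 4 UMIs, and 63.2% and 60.2% without thinning. The log2 ratio of the deepest to the shallowest bin, 0.48 and 0.42, was 0.38 and 0.45 with doublets kept. No paired analysis was possible because each genotype had 1 library. Variation between embryos, pools and libraries is in none of the intervals, and classes with few cells, such as the 63 muscle-like cells of wild type, limit single genes most.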
